A study of Mus musculus with 10 samples.

Results

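The genes described here are used to follow monocyte-derived and tumour macrophages in tissue, and they are Cd68, Csf1r, Adgre1, C1qa, C1qb, C1qc, Apoe, Trem2, Spp1 and Gpnmb. The 10 genes were chosen by symbol, with no measured value in the rule, and all 10 were among the 24421 genes of the count table. The study compared 5 libraries of lung squamous cell carcinoma (SCC) from wild-type NIH Swiss mice treated with NTCU, a nitrosourea carcinogen, with 5 libraries of normal lung from untreated wild-type NIH Swiss mice. Regions were captured by laser from formalin-fixed, paraffin-embedded sections, and total RNA was sequenced. The labels give neither the animal behind a library, nor its age, nor the time after treatment. The p-values below therefore measure the spread between libraries, some of which may be technical. Where regions come from 1 animal, these p-values are too small.

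Macrophages in lung come from long-lived resident cells of the airspaces and interstitium and from blood monocytes that enter tissue, including tumours. The survival of many of them, though not of all, depends on the receptor CSF1R. Adgre1 (F4/80) and Cd68 are classical mouse macrophage markers, the first on the surface and the second in endosomes and lysosomes. C1qa, C1qb and C1qc encode the chains of C1q, the recognition protein of the classical complement pathway, which macrophages make locally. Apoe (a lipid carrier), Trem2 (a lipid-sensing receptor), Spp1 (the secreted phosphoprotein osteopontin) and Gpnmb (a transmembrane glycoprotein) are often high in lipid-laden and tumour-associated macrophages. Spp1, Apoe and Gpnmb are also made by other cells, among them epithelial cells for Spp1 and pigment cells for Gpnmb, so their counts in captured tissue are not macrophage counts. In bulk samples of this kind, fewer cells of a type and less RNA per cell cannot be told apart.

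The macrophage genes did not move as a block. Of the 10 members, 9 had enough counts to be tested. Gpnmb rose (6.15-fold), Csf1r fell (2.74-fold), and 7 did not pass the test. A call is an adjusted p under 0.05 from edgeR's quasi-likelihood test with Benjamini-Hochberg adjustment over 13203 genes, of which 12.5% were called higher and 8.68% lower in SCC. One member called in each direction out of 9 is therefore near the background share. The median log2 fold change of the 9 tested members, SCC over normal lung, was 0.36, against 0.07 over all genes tested. The 7 others include C1qb, whose groups did not overlap.

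Total counts were 1004105 to 3691806 in SCC libraries and 1457641 to 6817106 in normal lung. Counts on chemosensory receptor genes (Olfr, Vmn1r and Vmn2r families), which lung is not known to use at such breadth, ran at 3.45 to 3.68 CPM (each count scaled to the total of its library) per kb of coding length in SCC 1, SCC 3 and SCC 4. They ran at 0.623 in SCC 2, 0.429 in SCC 5 and at 0.0432 to 0.215 in normal lung. A background proportional to gene length at these rates would make up 26.6% to 28.3% of the counts in SCC 1, SCC 3 and SCC 4, 4.79% in SCC 2, 3.30% in SCC 5 and at most 1.66% in normal lung. Fits that kept only SCC 2 and SCC 5 of the SCC group, or that subtracted this background, are given for the members, and for other named genes where either ends or adds a call. Keeping SCC 2 and SCC 5 alone, Gpnmb and Apoe were called higher and no member lower, against 4.14% of all genes higher, 5.16% lower and 9.3% in either direction. With the background subtracted, Gpnmb was called higher and no member lower, against 7.8% of all genes higher, 6.71% lower and 14.5% in either direction.

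The macrophage label was checked against broad leukocyte genes. Ptprc (CD45), chosen with Itgam and Acp5 after values were seen, averaged 47.9 ± 15.1 CPM in SCC and 129 ± 30.3 CPM in normal lung (SD, n = 5 each), and fell (log2 fold change -1.53, edgeR adjusted p = 0.00295). Itgam (CD11b), carried by monocytes, macrophages and neutrophils, averaged 103 ± 27.8 CPM in SCC and 90.5 ± 19.8 CPM in normal lung (log2 fold change 0.07, edgeR adjusted p = 0.915). Both groups thus held leukocyte transcripts, at a lower summed level in SCC for 10 broad leukocyte genes (211 to 605 CPM in SCC and 579 to 1105 CPM in normal lung).

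The lineage markers come first. Csf1r, the receptor for the growth factors CSF1 and IL-34 that many macrophages need (chromosome 18, 61100598 to 61132149, GRCm38, plus strand), had 11.3, 55.8, 42.4, 19.9 and 33.5 CPM in SCC 1 to SCC 5, against 75.9, 64.3, 67.8, 45.9 and 164 CPM in normal 1 to normal 5. SCC 1 and SCC 4 were the lowest libraries and normal 5 the highest, and the groups overlapped only where SCC 2 exceeded normal 4. The log2 fold change was -1.46 (SE 0.45, 95% interval -2.37 to -0.54, edgeR adjusted p = 0.0201).

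Csf1r was called in 9 of 10 fits that left out a library, and also with DESeq2 size factors, with no filter, with a minimum of 1 CPM in 5 libraries, with the DESeq2 Wald test and with limma-voom. The call was lost without normal 5 (-1.23, edgeR adjusted p = 0.061), with SCC 2 and SCC 5 alone (-1.03, edgeR adjusted p = 0.231) and after background subtraction (-1.64, edgeR adjusted p = 0.155). The 12 counts of SCC 1 lay below its estimated background of 18.0 counts for a gene of this length, and the 20 counts of SCC 4 lay close to 18.1. Background would account for 20.9% of all Csf1r counts in SCC and 0.504% in normal lung. Csf1r shares part of its locus with Hmgxb3 on the opposite strand and with Mir6983 on the same strand, so its counts are uncertain to that extent.

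Adgre1, the F4/80 antigen (chromosome 17, 57358691 to 57483527, plus strand), had 4.71, 20.9, 22.6, 14.9 and 18.0 CPM in SCC 1 to SCC 5, against 26.1, 34.9, 18.0, 12 and 10.3 CPM in normal 1 to normal 5. SCC 1 alone stood under all normal libraries, and the other libraries overlapped. Its log2 fold change of -0.41 (SE 0.59, 95% interval -1.62 to 0.80) was not called (edgeR adjusted p = 0.683). Background would make up 30.2% of its SCC counts.

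Cd68, the lysosomal glycoprotein macrosialin (chromosome 11, 69664213 to 69666153, minus strand), had 85.8, 53.9, 74.3, 64.7 and 83.7 CPM in SCC 1 to SCC 5, against 83.8, 63.6, 21.6, 30.5 and 31.6 CPM in normal 1 to normal 5. The SCC libraries were close together, while normal lung split into normal 1 and normal 2 at SCC levels and the other 3 below them. Its log2 fold change of 0.55 (SE 0.41, 95% interval -0.29 to 1.38) was not called (edgeR adjusted p = 0.378). With the background subtracted it was 0.997 (95% interval 0.07 to 1.92, edgeR adjusted p = 0.151), and from SCC 2 and SCC 5 alone 0.49 (edgeR adjusted p = 0.663).

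**Figure D1:**
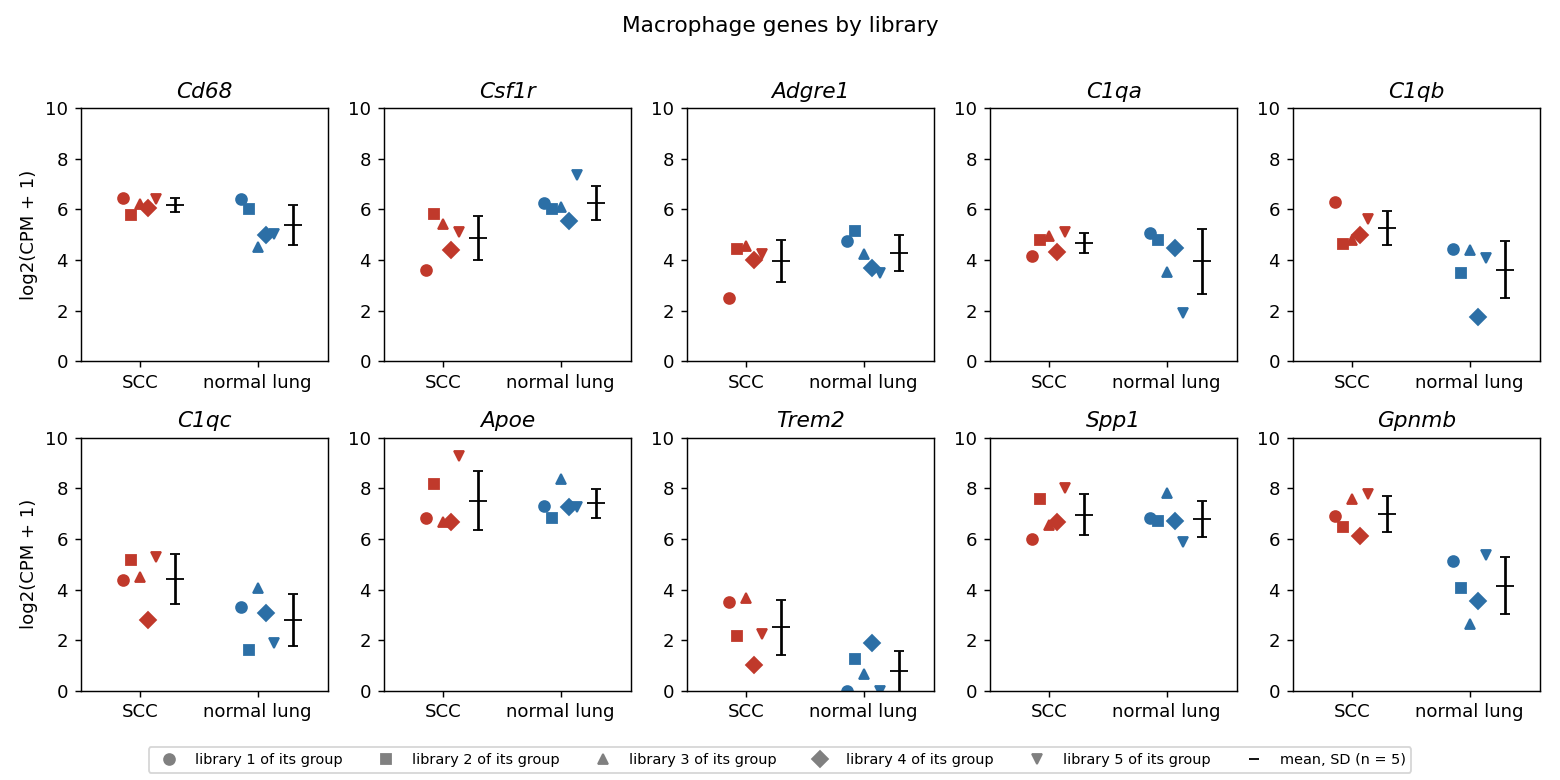
Level of each macrophage gene per library as log2(CPM + 1), SCC in red on the left and normal lung in blue on the right, with marker shapes for library 1 to library 5 of each group and black bars marking mean and SD (n = 5). The lowest SCC library exceeds the highest normal library for Gpnmb and C1qb, and the groups overlap for the other genes.

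The C1q genes lie in a cluster of 18675 bases on mouse chromosome 4, all on the minus strand. C1qb (136880129 to 136886187) had 77.3, 24.1, 26.4, 30.9 and 48.2 CPM in SCC 1 to SCC 5, against 20.4, 10.3, 20.1, 2.31 and 15.8 CPM in normal 1 to normal 5. Each SCC library lay above each normal library. Of all tested genes 8.81% stood apart in this way with SCC above and 5.77% with SCC below. The estimate of 1.49 on the log2 scale (SE 0.55, 95% interval 0.35 to 2.62) missed the threshold (edgeR adjusted p = 0.0557). C1qb passed with DESeq2 size factors (1.54, edgeR adjusted p = 0.0477), with the DESeq2 Wald test (1.55, adjusted p = 0.0189), with limma-voom (1.21, adjusted p = 0.0461) and without SCC 2 (1.62, edgeR adjusted p = 0.043). It was not called in the other 9 fits that left out a library (1.06 to 1.59, edgeR adjusted p = 0.0681 to 0.208), with no filter (1.08, 0.123), with 1 CPM in 5 libraries (1.41, 0.0564), from SCC 2 and SCC 5 alone (1.31, 0.317) or with the background subtracted (1.88, 0.0511).

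C1qc (136889804 to 136893065) had 19.8, 34.7, 21.5, 5.98 and 37.6 CPM in SCC 1 to SCC 5, against 8.95, 2.05, 15.7, 7.33 and 2.74 CPM in normal 1 to normal 5. SCC 4 lay among the normal libraries and the other SCC libraries above them. On the log2 scale the estimate was 1.59 (SE 0.68, 95% interval 0.19 to 2.98), which was not called (edgeR adjusted p = 0.101) and passed the DESeq2 Wald test (1.65, adjusted p = 0.0305). With limma-voom it was 0.81 (adjusted p = 0.314). From SCC 2 and SCC 5 alone it was 2.14 (95% interval 0.50 to 3.77, edgeR adjusted p = 0.0968), and with the background subtracted 1.79 (edgeR adjusted p = 0.16). C1qa (136895917 to 136898803) had 17.0, 26.8, 29.7, 18.9 and 33.5 CPM in SCC 1 to SCC 5, against 32.6, 26.7, 10.6, 21.2 and 2.74 CPM in normal 1 to normal 5, with a log2 fold change of 0.33 (SE 0.57, 95% interval -0.85 to 1.51, edgeR adjusted p = 0.746). The 3 chains therefore differed in their estimates, with intervals that overlap.

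The share of each chain in the summed C1q counts varied between libraries of 1 group. C1qa took 14.9% to 38.3% of C1q counts in SCC and 12.9% to 68.8% in normal lung. C1qb took 28.2% to 67.8% in SCC and 7.5% to 74.2% in normal lung. These shares rest on 56 to 316 C1q counts per SCC library and 31 to 316 per normal library. In the smallest libraries a share moves with a few counts. Shares also differed between libraries with more counts, as C1qa took 52.6% of 173 counts in normal 1 and 22.8% of 316 in normal 3. The cause was not tested.

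To show the sequence from which the C1q genes and Gpnmb start, the 250 bases before the RefSeq start (GRCm38.p6) are given for the member called higher and for both C1q members with positive intervals. Sequences run 5′ to 3′ on the strand of the gene, and capitals mark matches on either strand to GAGGAA (the core that PU.1, the macrophage lineage factor, binds) or to CATGTG (an E-box).
Gpnmb, chr6:49036268-49036517, plus strand: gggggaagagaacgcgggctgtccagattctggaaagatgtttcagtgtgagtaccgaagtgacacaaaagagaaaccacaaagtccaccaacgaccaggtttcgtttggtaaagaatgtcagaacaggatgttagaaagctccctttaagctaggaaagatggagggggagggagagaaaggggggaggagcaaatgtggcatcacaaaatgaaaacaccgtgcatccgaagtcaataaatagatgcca
C1qb, chr4:136886201-136886450, minus strand: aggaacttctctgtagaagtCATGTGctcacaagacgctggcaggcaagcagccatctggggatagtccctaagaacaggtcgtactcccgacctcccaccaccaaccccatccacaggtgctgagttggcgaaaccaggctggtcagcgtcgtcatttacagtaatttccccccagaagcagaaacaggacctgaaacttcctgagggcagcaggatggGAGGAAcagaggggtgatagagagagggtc
C1qc, chr4:136892915-136893164, minus strand: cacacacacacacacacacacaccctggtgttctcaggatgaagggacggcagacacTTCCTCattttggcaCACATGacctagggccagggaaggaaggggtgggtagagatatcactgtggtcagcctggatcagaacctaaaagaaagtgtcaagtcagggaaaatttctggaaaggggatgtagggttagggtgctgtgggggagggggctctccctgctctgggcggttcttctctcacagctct

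The C1qb and C1qc windows each held 1 match to GAGGAA and 1 to CATGTG, read on either strand, and the Gpnmb window held neither. In C1qb the GAGGAA match began 30 bases before the RefSeq start, and in C1qc 193 bases before it. The RefSeq and GENCODE starts of C1qc differ, so that 151 bases of its window lie inside the GENCODE locus given above. Among 32851 RefSeq promoter windows of the same length outside chromosome 18, 23.3% held GAGGAA and 12.3% held CATGTG. The other motifs searched were CACGTG (an E-box, in 6.02% of windows) and TGANTCA (the AP-1 motif, in 6.75%). Neither was in these 3 windows. Windows on chromosome 18 were left out, so Csf1r was not searched. Of the 7 members with a window, 6 held GAGGAA in it, Gpnmb being the exception. A match is a description of letters and not a measured site.

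The genes of lipid-laden and tumour-associated macrophages differed widely from each other. Gpnmb (chromosome 6, 49036546 to 49070929, plus strand), named for its discovery in a non-metastatic melanoma line, had 118, 88.8, 193, 68.7 and 221 CPM in SCC 1 to SCC 5, against 34.4, 15.7, 5.28, 10.8 and 40.5 CPM in normal 1 to normal 5. The lowest SCC library, SCC 4, lay above the highest normal library, normal 5. The log2 fold change was 2.62 (SE 0.50, 95% interval 1.59 to 3.65, edgeR adjusted p = 0.000408). Gpnmb stayed called with SCC 2 and SCC 5 alone (2.81, edgeR adjusted p = 0.00283), after background subtraction (3.004, edgeR adjusted p = 0.00147) and in each of the 10 fits that left out a library (2.29 to 2.81). Background would make up 5.42% of its SCC counts.

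Other cell types that use Gpnmb were looked at beside it. Of 5 pigment cell genes, 1 was tested, and Tyr, the melanin enzyme, was called higher (log2 fold change 3.61, edgeR adjusted p = 0.000197). Its values were 134, 28.7, 101, 74.7 and 8.57 CPM in SCC 1 to SCC 5 and 1.54 to 10 CPM in normal lung. Tyr was highest in SCC 1, SCC 3 and SCC 4, the libraries with the most estimated background (26.6% to 28.3% of counts). It was not called with SCC 2 and SCC 5 alone (1.71, edgeR adjusted p = 0.305) and stayed called after background subtraction (4.13, edgeR adjusted p = 0.00209). The 5 pigment genes summed to 9.80 to 156 CPM in SCC and 2.05 to 14.4 CPM in normal lung. The part of pigment cells in the Gpnmb result was not tested.

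Osteoclasts, bone-resorbing cells of the same lineage, also use Gpnmb and Spp1. Of 6 osteoclast genes 2 were tested. Acp5, the phosphatase TRAP, which macrophages make as well, was called higher (34.0 ± 9.05 CPM in SCC and 7.17 ± 6.18 CPM in normal lung, SD, n = 5 each, log2 fold change 2.11, edgeR adjusted p = 0.0283), and was not called with SCC 2 and SCC 5 alone or after background subtraction. Nfatc1, the osteoclast transcription factor, was called lower (-1.29, edgeR adjusted p = 0.0175). The 6 genes summed to 55.1 to 145 CPM in SCC and 84.3 to 145 CPM in normal lung. The part of osteoclasts in the Gpnmb result was not tested either.

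Trem2 (chromosome 17, 48346401 to 48354147, plus strand), the receptor that binds lipids and signals through the adaptor Tyrobp, had few counts and failed the low-count filter. It had 11, 13, 21, 1 and 9 counts in SCC 1 to SCC 5 (10.4, 3.52, 11.6, 0.996 and 3.67 CPM), against 0, 2, 4, 7 and 0 counts in normal 1 to normal 5 (0, 1.37, 0.587, 2.70 and 0 CPM). A count of 0 allows up to 1.07 CPM in normal 1 and 2.06 CPM in normal 5. SCC 4 lay among the normal libraries, and the other SCC libraries lay above them. Pooled over libraries, the ratio of SCC to normal lung was 6.38 (95% counting interval 3.44 to 12.7, which covers counting error only). In the fit with no filter the log2 fold change was 2.03 (SE 1.20, 95% interval -0.33 to 4.39, edgeR adjusted p = 0.173). The median over all genes tested in that fit was 0.71. Its interval rests on a spread pooled over genes (183352 degrees of freedom, against 26.0 for the members in the main fit). Trem2's own spread between libraries hardly enters it. Background would make up 35.3% of the SCC counts of Trem2 and 10.2% of its normal counts. Its few counts keep the interval wide.

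Spp1 (chromosome 5, 104435118 to 104441050, plus strand), osteopontin, which binds integrins and CD44, had 62.2, 190.4, 94.1, 102 and 255 CPM in SCC 1 to SCC 5, against 114, 105, 226, 103 and 57.6 CPM in normal 1 to normal 5. The highest SCC libraries were SCC 2 and SCC 5 and the highest normal library was normal 3, and the groups overlapped throughout. A log2 fold change of 0.14 (SE 0.42, 95% interval -0.72 to 0.99) was not called (edgeR adjusted p = 0.858).

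Apoe (chromosome 7, 19696109 to 19699188, minus strand), the carrier that macrophages use to export cholesterol, had 112, 285, 102, 101 and 614 CPM in SCC 1 to SCC 5, against 158, 113, 329, 153 and 152 CPM in normal 1 to normal 5. SCC 2 and SCC 5 stood high and the other SCC libraries stood below each normal library. The log2 fold change of 0.36 (SE 0.47, 95% interval -0.61 to 1.34) was not called (edgeR adjusted p = 0.65). With SCC 2 and SCC 5 alone it was 1.22 (SE 0.38, edgeR adjusted p = 0.0461), and with the background subtracted 0.63 (edgeR adjusted p = 0.391). Without SCC 5 it was -0.44 (edgeR adjusted p = 0.44), so SCC 5 decided its direction.

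**Figure D2:**
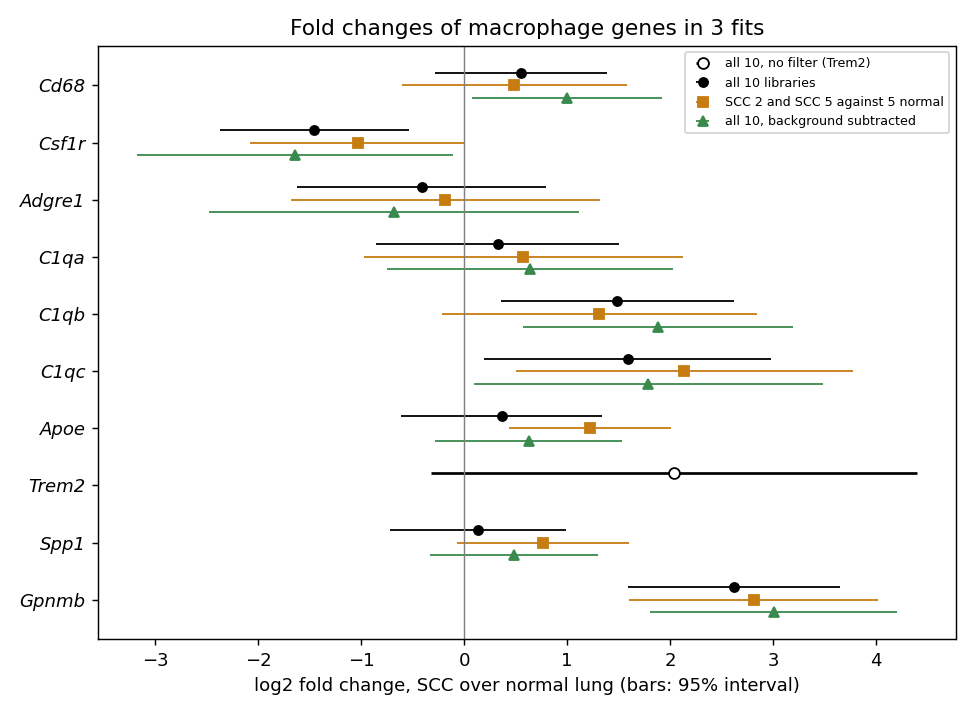
Log2 fold change of each macrophage gene, SCC over normal lung, with 95% intervals, for all 10 libraries (black circles), for SCC 2 and SCC 5 against the 5 normal libraries (orange squares) and after background subtraction (green triangles); the open circle is Trem2 in the fit with no filter. Gpnmb lies between 2.62 and 3.004 in the 3 fits, Csf1r between -1.64 and -1.03, and the intervals of Cd68, Adgre1, C1qa, Apoe and Spp1 with all libraries cross 0.

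Levels were compared between genes per kb of exon length. In SCC the order by mean CPM per kb was Apoe (132 ± 121), Spp1 (85.3 ± 48.3), Cd68 (57.7 ± 10.6), C1qb (38.0 ± 20.4), Gpnmb (30.5 ± 14.7), C1qa (24.2 ± 6.78), C1qc (19.9 ± 10.6), Csf1r (6.67 ± 3.62), Trem2 (5.27 ± 4.07) and Adgre1 (5.01 ± 2.18; SD, n = 5 each). Of the neighbours in this order, only C1qc exceeded the next gene, Csf1r, in 5 of 5 SCC libraries, and the others changed places between libraries. In normal lung the order was Apoe (98.5 ± 45.9), Spp1 (73.4 ± 38.1), Cd68 (36.7 ± 21), C1qa (18.0 ± 11.6), Csf1r (17.1 ± 9.47), C1qb (12.7 ± 6.99), Adgre1 (6.26 ± 3.17), C1qc (6.11 ± 4.58), Gpnmb (4.72 ± 3.39) and Trem2 (0.814 ± 0.995; SD, n = 5 each). There Spp1 exceeded Cd68, Cd68 exceeded C1qa and Gpnmb exceeded Trem2 in 5 of 5 libraries. Gpnmb was in place 5 in SCC and place 9 in normal lung, and Csf1r in place 8 in SCC and place 5 in normal lung. These levels include background, which would make up 20.9% of the SCC counts of Csf1r, 35.3% of Trem2 and 30.2% of Adgre1. The lowest SCC levels are uncertain to that extent.

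Ratios between genes were taken within each library, from log2 CPM with a prior count of 2. The log2 ratio of Gpnmb to Csf1r was 2.11 ± 0.996 in SCC and -2.12 ± 0.86 in normal lung (SD, n = 5 each), a difference of 4.23 (exact two-sided permutation test, p = 0.0079, the smallest this design can give, adjusted p = 0.0159 over 4 ratios). In each SCC library Gpnmb had more counts than Csf1r (1.59 to 10.4 Gpnmb counts per Csf1r count), and in each normal library fewer (0.0779 to 0.453). The ratio of Trem2 to Csf1r was -2.42 ± 1.49 in SCC and -5.71 ± 1.52 in normal lung, a difference of 3.29 (exact permutation p = 0.0079, adjusted p = 0.0159), with 13 normal Trem2 counts behind it.

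The ratio of Spp1 to Csf1r was 2.10 ± 0.67 in SCC and 0.53 ± 1.22 in normal lung (SD, n = 5 each), a difference of 1.56 (exact permutation p = 0.0238, adjusted p = 0.0317). The ratio of Apoe to Csf1r was 2.65 ± 1.09 in SCC and 1.15 ± 0.90 in normal lung, a difference of 1.51 (exact permutation p = 0.0397, adjusted p = 0.0397). The groups overlapped for the Spp1 and Apoe ratios and did not for the Gpnmb ratio. For Trem2 the lowest SCC library (-3.71) and the highest normal library (-3.74) were nearly equal, and with a prior count of 0.5 the groups overlapped and the difference was 4.19 (exact permutation adjusted p = 0.0317). The 4 ratios share Csf1r, so the lower Csf1r of SCC enters each of them. Mean log2 CPM in SCC and normal lung was 4.86 and 6.26 for Csf1r, 6.96 and 6.79 for Spp1, and 7.52 and 7.41 for Apoe. The Spp1 and Apoe ratio differences thus lay mostly in Csf1r. For Gpnmb (6.98 and 4.14) and Trem2 (2.44 and 0.545) the larger part lay in the gene itself. With the background subtracted, which left Csf1r at 0 CPM in SCC 1 and 2.62 CPM in SCC 4, the differences were 3.11 for Spp1, 5.71 for Gpnmb, 4.24 for Trem2 and 3.05 for Apoe, each with an exact permutation adjusted p of 0.0159. Those Csf1r values lay below the floor of 3 counts (2.83 CPM in SCC 1 and 2.99 CPM in SCC 4). In these libraries the prior count of 2 largely set the ratios, and the SD in SCC was 2.08 to 2.87. The larger differences are therefore not a measure of a stronger change. The Spp1 ratio lost its call without any 1 of SCC 1, SCC 2, SCC 4, SCC 5, normal 1, normal 2 or normal 5 (1.06 to 1.65, exact permutation adjusted p = 0.0529 to 0.0847), and the Apoe ratio lost its call without the same libraries (1.13 to 1.599, exact permutation adjusted p = 0.0556 to 0.0873).

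**Figure D3:**
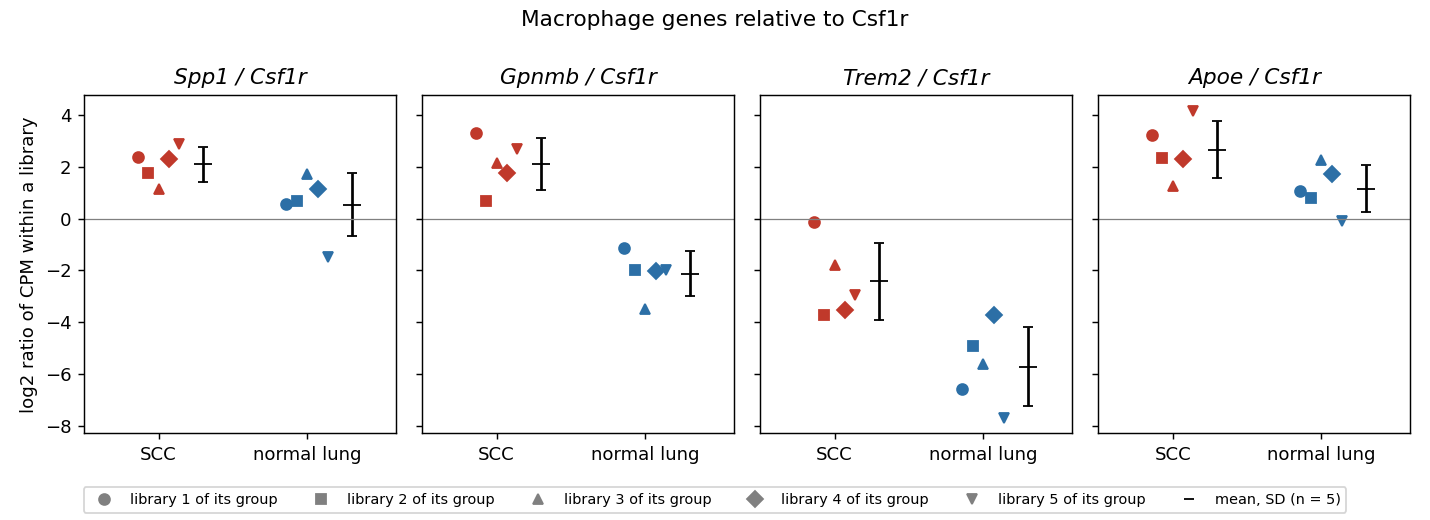
Log2 ratio of Spp1, Gpnmb, Trem2 and Apoe to Csf1r within each library, SCC in red on the left and normal lung in blue on the right, with marker shapes for library 1 to library 5 of each group and black bars marking mean and SD (n = 5). For Gpnmb the SCC libraries lie above 0 (0.66 to 3.29) and the normal libraries below it (-3.50 to -1.12).

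Partners of the members were read from lists of related genes. Over all 24 lists, which hold 246 other genes, 193 were tested, 24 were higher and 49 lower, or 37.8% called against 21.1% of all genes. Their median log2 fold change was -0.42, against 0.07 for all genes. The lists include lung epithelial, endothelial and squamous markers beside macrophage genes. Those markers set the tissue apart, since 7 of 7 alveolar type 2 and 7 of 7 endothelial genes were lower and 7 of 7 squamous genes higher. Slc34a2, the alveolar type 2 phosphate transporter, was at -4.20, Tie1, an endothelial receptor, at -3.77 and Krt4, a squamous keratin, at 11.1 on the log2 scale.

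Growth factor genes of the CSF axis showed no call among 6 tested genes of 8. Csf1, the main ligand of Csf1r, averaged 26.9 ± 11.9 CPM in SCC and 27.4 ± 10.2 CPM in normal lung (SD, n = 5 each, log2 fold change -0.14, edgeR adjusted p = 0.878), and was named after its values were seen. Il34, the other ligand, averaged 5.47 ± 3.75 CPM in SCC and 8.73 ± 4.27 CPM in normal lung (-0.75, edgeR adjusted p = 0.578). Csf2ra, a receptor chain for GM-CSF, averaged 71.9 ± 15.3 CPM in SCC and 85.8 ± 34.9 CPM in normal lung (-0.38, edgeR adjusted p = 0.511).

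Of 11 tested myeloid transcription factors 2 were called lower, beside 8.68% of all genes. Zeb2, also used outside the myeloid lineage, fell by 1.80 on the log2 scale (SE 0.37, edgeR adjusted p = 0.00079) and Cebpb, a factor of inflammatory gene expression, by 1.52 (SE 0.46, edgeR adjusted p = 0.0184). Cebpb was not called from SCC 2 and SCC 5 alone (edgeR adjusted p = 0.354) or after background subtraction (edgeR adjusted p = 0.0721).

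TREM2 partners held no call among 7 tested genes of 8. Vav1, a signalling exchange factor of blood cells, was at 1.26 (edgeR adjusted p = 0.117) and Btk, a kinase, at -1.68 (edgeR adjusted p = 0.213). Tyrobp (DAP12), the adaptor of Trem2 and named after its values were seen, averaged 21.8 ± 9.17 CPM in SCC and 19.4 ± 9.97 CPM in normal lung (log2 fold change 0.05, edgeR adjusted p = 0.962).

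Among 9 classical complement partners 1 was higher and 6 lower, beside 12.5% higher and 8.68% lower of all genes. C3ar1, the receptor for the C3a fragment on myeloid cells, had 50.9, 62.0, 53.4, 48.8 and 73.1 CPM in SCC 1 to SCC 5, against 9.31, 4.78, 6.60, 1.54 and 1.37 CPM in normal 1 to normal 5. The groups stood far apart, with a log2 fold change of 3.48 (SE 0.55, edgeR adjusted p = 4.89e-05), and the call held with SCC 2 and SCC 5 alone (3.70, edgeR adjusted p = 0.00112). Serping1, the C1 inhibitor, averaged 79.4 ± 40.8 CPM in SCC and 238 ± 30.1 CPM in normal lung (-1.72, edgeR adjusted p = 0.00157). The proteases C1ra and C1s1 and the substrates C4b and C3, named after their values were seen, were also lower, at -2.24, -1.55, -1.44 and -1.70. Of these, C1s1 and C4b lost the call with SCC 2 and SCC 5 alone, and C1ra and C4b after background subtraction.

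Of 16 tested genes of lipid uptake and efflux, 4 were lower and 0 higher, beside 8.68% lower and 12.5% higher of all genes. Cd36, a fatty acid receptor that endothelium shares with macrophages, averaged 123 ± 86.8 CPM in SCC and 658 ± 85.6 CPM in normal lung (-2.56, edgeR adjusted p = 0.000135), and Soat1, which esterifies cholesterol, averaged 76.1 ± 18.5 CPM in SCC and 199 ± 33.9 CPM in normal lung (-1.50, edgeR adjusted p = 0.00216). Of 9 osteopontin receptor genes 1 was higher and 2 lower, beside the same shares of all genes. Itga8 averaged 43.7 ± 16.4 CPM in SCC and 384 ± 57.6 CPM in normal lung (-3.27, edgeR adjusted p = 1.4e-06). Itga4 was at 2.15 (edgeR adjusted p = 0.00146) and was not called from SCC 2 and SCC 5 alone (0.39, edgeR adjusted p = 0.591).

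Lysosomal genes held no call among 15 tested with all libraries, with a median of 0.15. Ctsl, a cathepsin, averaged 141 ± 112 CPM in SCC and 62.6 ± 31.8 CPM in normal lung (1.09, edgeR adjusted p = 0.101) and passed with SCC 2 and SCC 5 alone (1.73, edgeR adjusted p = 0.016). Ctsk, the collagen-degrading cathepsin, averaged 44.8 ± 43.0 CPM in SCC and 12.1 ± 10.7 CPM in normal lung (1.74, edgeR adjusted p = 0.103). Ctsd, another cathepsin, was the 1 gene of the list called with the background subtracted.

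Of 12 tested surface genes of macrophages 2 were higher and 1 lower, which is near the shares over all genes (12.5% higher and 8.68% lower). Cd14, the lipopolysaccharide co-receptor of monocytes and macrophages, averaged 53.9 ± 26.3 CPM in SCC and 9.08 ± 5.48 CPM in normal lung with no overlap (2.48, edgeR adjusted p = 0.00132). Lyz2, lysozyme, which alveolar type 2 cells and macrophages both make, averaged 340 ± 72.9 CPM in SCC and 842 ± 116 CPM in normal lung (-1.42, edgeR adjusted p = 0.00761); it shares sequence with Lyz1, so its count is uncertain.

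Among the 32 tested genes of alveolar macrophages, interstitial macrophages and monocytes, 24 were not called, 7 were lower and 1 was higher, beside 8.68% lower and 12.5% higher of all genes. Of 13 tested alveolar macrophage genes 1 was lower, Car4, which capillary endothelium also makes (5.33 ± 4.96 CPM in SCC and 95.9 ± 32.5 CPM in normal lung, -4.26, edgeR adjusted p = 1.33e-05), and Atp6v0d2, a proton pump subunit, was at -0.94 (edgeR adjusted p = 0.131). Of 8 tested interstitial macrophage genes 3 were lower, with Lyve1, shared with lymphatic endothelium, at -4.04 (edgeR adjusted p = 2.5e-06) and Pf4, a chemokine shared with platelets, at -4.22 (edgeR adjusted p = 0.00149, 0.0764 from SCC 2 and SCC 5 alone, and below the filter with the background subtracted). Of 11 tested monocyte genes 1 was higher and 3 lower, with Ace, an endothelial enzyme too, at -2.91 (edgeR adjusted p = 4.33e-05) and Hp, haptoglobin, at -2.86 (edgeR adjusted p = 0.000239). Of these lists, the monocyte genes summed to 814 to 1684 CPM in SCC and 1832 to 2665 CPM in normal lung, and the alveolar macrophage genes to 254 to 755 CPM in SCC and 552 to 775 CPM in normal lung. Ace alone averaged 144 ± 109 CPM in SCC and 981 ± 75.4 CPM in normal lung. This 1 gene, shared with endothelium, thus weighs heavily in the monocyte sum.

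Effector genes of tumour macrophages had 4 of 13 tested members higher and 1 lower, with a median of 0.73. Over all genes tested 12.5% were higher and 8.68% lower, with a median of 0.07. One of the 4, the chemokine gene Cxcl9, was called neither from SCC 2 and SCC 5 alone nor with the background subtracted. Arg1, the arginine-degrading enzyme, measured 98, 198, 43.5, 75.7 and 741 CPM in SCC 1 to SCC 5, against 0, 0, 0, 0.772 and 0.686 CPM in normal 1 to normal 5 (edgeR adjusted p = 1.18e-07), and epithelial cells can make it too. Vegfa, the endothelial growth factor, averaged 150.5 ± 110 CPM in SCC and 1032 ± 155 CPM in normal lung (-2.86, edgeR adjusted p = 0.000115), where alveolar epithelium is a known source. Mmp12, macrophage metalloelastase, named after its values were seen, averaged 121 ± 107 CPM in SCC and 5.91 ± 8.57 CPM in normal lung with no overlap (4.29, edgeR adjusted p = 0.000156).

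**Figure D4:**
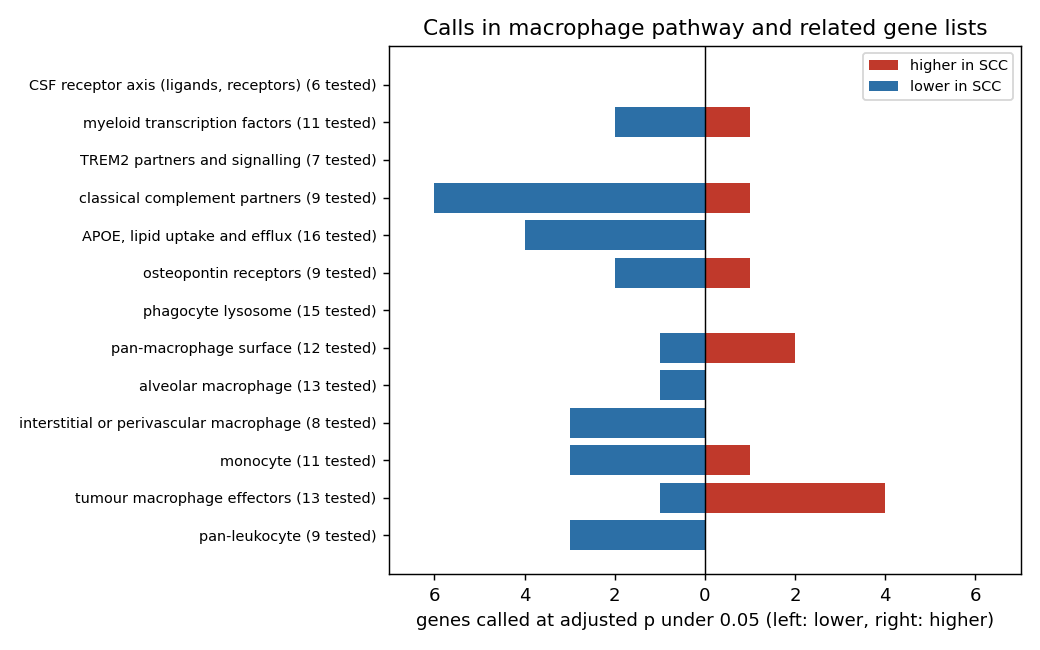
Number of genes called higher (red, right) or lower (blue, left) in SCC at an adjusted p under 0.05, for 13 lists of macrophage partners and related cells, with the number of tested genes in brackets. Complement partners hold 6 lower and 1 higher, tumour macrophage effectors 4 higher and 1 lower, and the CSF, TREM2 and lysosome lists hold no call. Over all genes tested 12.5% were higher and 8.68% lower.

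Markers of other cells differed as well, and their part in the member results was not tested. Neutrophil genes summed to 1864 to 7794 CPM in SCC and 91.9 to 198 CPM in normal lung, of which Ltf (lactoferrin, which airway epithelium also secretes) averaged 3338 CPM in SCC (8.46, edgeR adjusted p = 1.77e-07). The SCC sum thus rests largely on this 1 gene. Of 12 neutrophil genes 6 were tested and 3 called higher, beside 12.5% of all genes. From SCC 2 and SCC 5 alone, Ltf was the 1 gene called of 10 tested, beside 4.14% of all genes called higher. Of 9 tested dendritic cell genes 1 was higher and 4 lower, with the class II gene H2-Aa at -2.34 (edgeR adjusted p = 6.72e-05). The broad leukocyte list had 3 of 9 lower and 0 higher, Lcp1 at -1.49 (edgeR adjusted p = 0.00251). Beside these 2 lists, 12.5% of all genes were higher and 8.68% lower. T and NK cell genes held no call among 5 tested (Cd8a at 1.84, edgeR adjusted p = 0.117). Of 6 tested B and plasma cell genes 1 was higher and 0 lower, with a median of -0.45. The gene called was Jchain of plasma cells (1.52, edgeR adjusted p = 0.0297). Kit of mast cells and progenitors, the 1 tested gene of 7 for mast cells and basophils, fell by 2.93 on the log2 scale (edgeR adjusted p = 8.66e-06). Of 7 tested fibroblast genes 3 were lower and 0 higher, with Pdgfra at -2.33 (edgeR adjusted p = 0.000135). The shares over all genes were again 12.5% higher and 8.68% lower.

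The genes whose profile over the 10 libraries was most like a member were found by the root mean square difference of centred log2 CPM among 7629 named genes averaging 20 CPM or more. For Csf1r these were Hexa (0.405), Cd200 (0.410) and Cfl2 (0.419). For Spp1 they were Cnot2 (0.273), Ankrd17 (0.285) and Rpl14 (0.286), and for C1qa Nabp1 (0.387), Atp10a (0.391) and Fam210b (0.395). These values describe likeness of level over 10 libraries and are on the log2 scale.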

How the data were processed

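The authors deposited raw counts for each gene symbol, with a column for each of the 10 libraries and no normalization. HTSeq 0.6.1, TopHat2 2.0.1, cutadapt 1.9.1, DESeq2 and build mm10 are listed in the submitters' processing notes. Annotation and strand setting: not given in the sources used here. The test was edgeR 4.0.16 under R 4.3.3 (filterByExpr by group, TMM, robust quasi-likelihood test, no covariate); the SE is the log2 fold change divided by the square root of F. Log2 CPM uses a prior count of 2. Intervals of log2 fold changes include the spread between libraries, which for Trem2 in the fit with no filter was pooled over genes. The interval of the pooled Trem2 ratio and the floors (3 counts) cover counting error only. Exon lengths and loci were taken from GENCODE M21 (GRCm38) for 24033 matched genes, 657 of them through another symbol. Promoters came from RefSeq, without chromosome 18. Receptor signal is the mean count per kb of coding length over 1439 receptor genes, each library capped at its percentile 98, and background was taken as this rate times exon length. The test was checked on simulated counts. Alternatives were DESeq2 1.42.0, limma-voom (limma 3.58.1), other factors and filters, background subtraction, and leaving out libraries. The members and lists were chosen with earlier results of these data known. The text names all members, the genes of smallest p in each list (2 for macrophage lists, 1 for others) and the 3 genes of most similar profile for Csf1r, C1qa and Spp1. One result on a listed gene is not reported here.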

Additional observations from a re-analysis of the deposited data

Results flagged for a closer look

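In the 20 sets of 5 values (10 genes in SCC and in normal lung), 2 held a library far from the others, where chance flags about 1 in 20. Csf1r in normal 5 was 164 CPM, with a gap to the next library of 0.746 of the range, and its call was lost without that library. Apoe in normal 3 was 329 CPM, with a gap of 0.792 of the range.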

How the results depend on the processing

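No paired analysis was possible because the labels give no replicate number, animal or batch shared by the groups. Gpnmb was called higher in each alternative run. The number of members called higher was 1 with all libraries and 2 with DESeq2 size factors, limma-voom or SCC 2 and SCC 5 alone, 3 with the DESeq2 Wald test, and 1 to 2 when a library was left out. The number called lower was 1, and 0 once the background was subtracted or from SCC 2 and SCC 5 alone, and 0 to 1 when a library was left out. Genes called higher overall were 1645 of 13203 tested, and 1691 of 13203 with DESeq2 size factors. They were 5470 of 22919 with no filter, 3551 of 17275 with 1 CPM in 5 libraries and 6378 of 21503 with the DESeq2 Wald test. With limma-voom they were 3257 of 13203, with the background subtracted 898 of 11508 and from SCC 2 and SCC 5 alone 592 of 14305. Where the DESeq2 Wald test and limma-voom called more members, they also called more of all genes. Genes called lower were 1146 of 13203, and 2072 of 22919 with no filter, 2766 of 13203 with limma-voom and 738 of 14305 from SCC 2 and SCC 5 alone. From SCC 2 and SCC 5 alone the ratios to Csf1r were 1.80 for Spp1, 3.82 for Gpnmb, 2.51 for Trem2 and 2.10 for Apoe, with exact permutation p-values adjusted over the 4 ratios of 0.143, 0.0952, 0.127 and 0.0952, where the smallest unadjusted p is 0.0476. Without 1 library the Spp1 ratio ran from 1.06 to 1.86 and the Apoe ratio from 1.13 to 1.86. Members not called changed sign: C1qa was -0.037 and Spp1 -0.19 with no filter, Apoe -0.66 and Spp1 -0.26 with limma-voom, and without 1 library C1qa ran from -0.13 to 0.44, Apoe from -0.44 to 0.62 and Spp1 from -0.28 to 0.41. The cause was not tested. Trem2 had 13 counts in normal lung, so depth limits it.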
